A study of Mus musculus with 2 samples.

Results

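The genes of the TGF-beta and BMP signalling pathway were followed in reduced representation bisulfite sequencing (RRBS) of mouse embryonic fibroblasts (MEFs). The 38 genes were taken by name as ligands, receptors, secreted antagonists, Smads and Id targets of the pathway. All 38 had at least 1 covered cytosine, as had 21950 of the 37310 annotated genes. Together they held 2916 of the 826937 cytosine positions covered in both cell types, 691 of them within 2 kb upstream of a gene start and 2225 in gene bodies.

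The cells compared were wildtype (wt) MEFs and MEFs of genotype ESR2 -/- (βerko), which lack oestrogen receptor β, both of strain C57BL/6 and grown in the same serum-containing medium. For each cell type DNA of 3 batches was pooled into 1 library. There were therefore no replicates, and a difference between genotypes cannot be told apart from one between single libraries. In RRBS the DNA is cut with MspI at CCGG and short fragments are treated with bisulfite, so that CpG-rich regions are covered best and a cytosine still read as cytosine counts as methylated. The authors deposited the percentage of methylated reads at each cytosine without the number of reads, which they gave only for positions that differed strongly, the differentially methylated positions (DMPs). The depth of all other positions is unknown here. RRBS measures neither transcripts nor proteins, and expression of these genes was not analysed here.

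Ligands of this family are secreted dimers that bring type II and type I serine/threonine kinase receptors together. The type I receptor then phosphorylates receptor-regulated Smads, mainly Smad2 and Smad3 after TGF-beta or activin and Smad1 and Smad5 after BMPs, which act on transcription in the nucleus. In fibroblasts TGF-beta is known for driving matrix production, while BMPs guide mesenchymal cells towards cartilage and bone and are held back by secreted antagonists such as Noggin and Gremlin 1.

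At the targeted gene, Esr2, 15 upstream positions averaged 39.8 % methylation in wt and 30.3 % in βerko MEFs, a value that is no check of the disruption. The label of the cells could not be checked by promoter methylation, because only 1 of 7 fibroblast markers had at least 5 covered upstream positions. That marker was Col1a2, a collagen gene, whose 5 positions averaged 93.6 % in wt and 48.3 % in βerko MEFs. Among 3 epithelial markers 1 had as many, Cdh1, whose 11 upstream positions averaged 28.7 % in wt and 10.2 % in βerko MEFs. No pluripotency or blood marker did. Over all covered positions of each marker, the fibroblast markers ranged from 28.0 to 93.8 % in wt and from 27.2 to 86.3 % in βerko MEFs. The measured pluripotency markers lay between 84.6 and 94.1 % in wt and between 60.3 and 86.7 % in βerko MEFs, the epithelial markers between 55.8 and 79.6 % and between 52.0 and 71.1 %, and the measured blood markers between 73.2 and 84.7 % and between 74.9 and 78.7 %. Whether other cell types had a part in any difference was not tested. Of 268 CpGs in the pathway genes that were covered on both strands, 92.9 % differed by less than 20 percentage points between strands in each cell type, and the SD of the strand difference was 11.0 points in wt MEFs and 13.7 points in βerko MEFs.

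Most upstream regions of the pathway were unmethylated in both cell types, and the means that differed by at least 20 percentage points were those of the ligand genes Bmp4 and Gdf7 and of Grem1. Of the 25 genes with at least 5 upstream positions, 16 were below 5 % methylation and 21 below 20 % in both cell types. The median of their upstream means was 1.12 % for wt and 0.490 % for βerko MEFs, compared with 1.67 and 1.14 % over the 8711 annotated genes measured in the same way. Of the 25 genes only Grem1 was lower in βerko MEFs by at least 20 percentage points, or 4 %, against 5.52 % of all measured genes. None was higher by that amount, against 0.585 % of all genes. The differences of 19 genes stayed within 5 points.

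In gene bodies the means of 3 of 34 genes were lower in βerko MEFs by at least 20 points, namely Bmp4, Gdf7 and Grem1. This share of 8.82 % stands beside 3.57 % of all 16466 measured gene bodies. No body was higher by 20 points, against 0.820 % of all bodies. Of the 34 bodies 28 had a lower and 6 a higher mean in βerko MEFs, with a median difference of -2.80 points, while over all annotated genes 60.8 % were lower and the median was -0.371 points. With 1 library per cell type these shares are a description, and no test of the pathway was made.

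**Figure D1:**
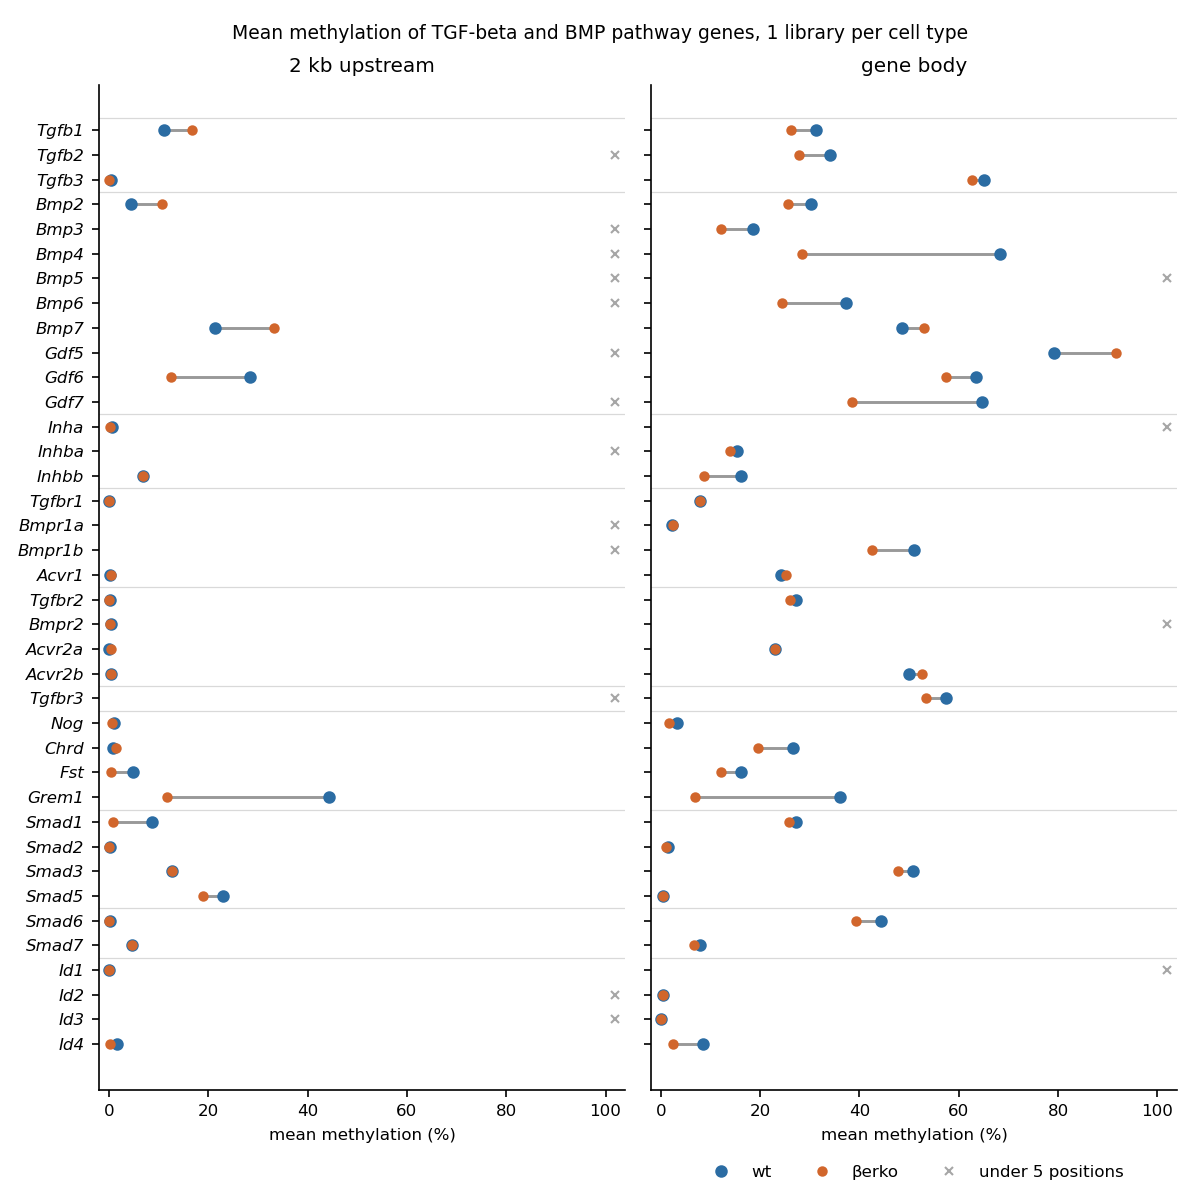
Mean methylation in percent of each pathway gene, grouped by role from TGF-beta ligands at the top to Id genes at the bottom, over the 2 kb upstream of the gene start (left) and over the gene body (right). Blue points are wt and orange points βerko MEFs, 1 library each, and a grey cross marks a gene with under 5 covered positions. Most upstream pairs sit together near 0, whereas Grem1 upstream (44.2 and 11.8 %) and the bodies of Bmp4 (68.3 and 28.4 %), Gdf7 (64.6 and 38.5 %) and Grem1 (36.1 and 6.90 %) are far apart.

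**Figure D2:**
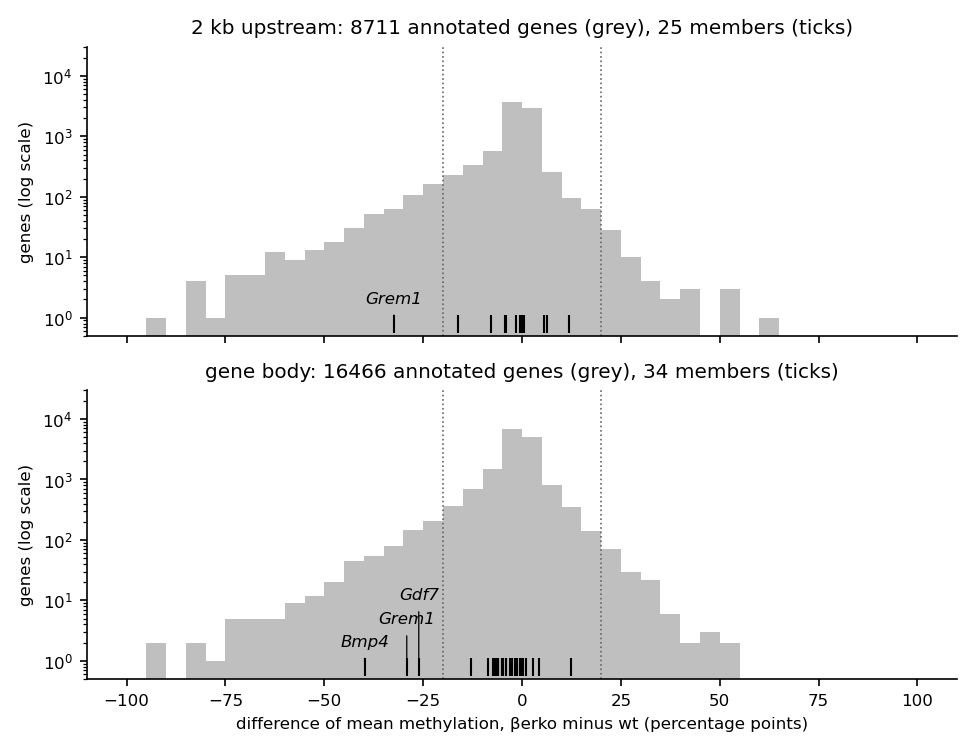
Difference of mean methylation, βerko minus wt in percentage points, of all annotated genes with at least 5 positions (grey bars, number of genes on a log scale) and of the pathway genes (black ticks), upstream and in gene bodies. Dotted lines mark 20 points in either direction. Bmp4, Gdf7 and Grem1 lie left of the lower line and no pathway gene lies right of the upper line.

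Bmp4, a BMP that acts in mesoderm, limb and bone development, had the largest difference of the 38 genes among means over at least 5 positions. The gene lies on the minus strand at chr14:47003195-47010344 of NCBIM37 (mm9), the build of all coordinates here, and its window also holds the annotated genes Gm15217 and Gm15222. The 30 positions of the body averaged 68.3 % in wt and 28.4 % in βerko MEFs, a difference of -39.8 ± 32.6 points (SD over positions) with rank 107 from the lowest of 16466 bodies. The spread over positions was large because stretches of the gene differed in their values. Between +4671 and +5002, counted from the gene start, 17 positions averaged 64.8 % in wt and 3.08 % in βerko MEFs. In βerko MEFs no position of this stretch was above 18.8 %, while in wt they ranged from 15.4 to 92.2 %. Nearer to the gene start, in an intron between +2370 and +2462, 4 positions averaged 26.4 % in wt and 2.23 % in βerko MEFs. At the far end of the coding sequence, between +6061 and +6457, 9 positions were highly methylated in both, with 93.4 % in wt and 88.0 % in βerko MEFs. The 4 covered positions just upstream of the gene start averaged 97.2 and 79.2 %, and were too few for an upstream mean.

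The coding stretch of Bmp4 is shown because it holds all 5 DMPs of the gene. It covers chr14:47005413-47005683, 271 bases read 5′ to 3′ on the minus strand, the strand of the gene. Capitals mark the 15 CpGs, of 16 covered and 23 present, at which methylation was lower in βerko MEFs by at least 20 points.
Bmp4: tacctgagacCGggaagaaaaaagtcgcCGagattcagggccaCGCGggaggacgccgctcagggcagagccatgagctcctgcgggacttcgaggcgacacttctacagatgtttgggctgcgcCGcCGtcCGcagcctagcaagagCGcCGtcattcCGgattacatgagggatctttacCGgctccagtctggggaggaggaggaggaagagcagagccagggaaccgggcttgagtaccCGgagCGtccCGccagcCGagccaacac

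The 5 DMPs of Bmp4 were all hypomethylated, meaning above 80 % in wt and below 20 % in βerko MEFs with more than 4 reads in each. At the last CpG in capitals, chromosome 14 position 47005423, 47 of 51 reads were methylated in wt (92.2 %, exact 95 % interval 81.1 to 97.8 %) and 2 of 80 in βerko MEFs (2.5 %, 0.304 to 8.74 %). The neighbouring positions 47005430 and 47005440 had 45 of 50 and 44 of 51 methylated reads in wt, and 4 of 80 and 15 of 80 in βerko MEFs. At 47005550 methylated reads numbered 24 of 28 in wt and 3 of 97 in βerko MEFs, and at the first capital CpG, 47005673, they numbered 34 of 39 and 1 of 100. Adjusted p-values of the 5 positions lay between 5.18e-25 and 3.07e-12 by two-sided Fisher's exact tests with Benjamini-Hochberg adjustment over all 826937 positions. Such a test compares reads of 2 libraries, not genotypes. The fragments were amplified by PCR and carried no molecular identifiers, so that several reads can stem from 1 molecule, and CpGs on 1 fragment share reads. Intervals and tests therefore describe counting error alone. DMPs were also chosen for the same difference that is tested, so a small p-value is no separate support for it.

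Grem1 encodes Gremlin 1, a secreted protein that binds BMPs and keeps them from their receptors. Of the 38 genes it was the only one lower in βerko MEFs by at least 20 points both upstream and in the body. The other genes with a lower body, Bmp4 and Gdf7, could not be called upstream, with 4 and 1 covered positions there. Grem1 lies on the minus strand at chr2:113586321-113598803. Its 10 upstream positions averaged 44.2 % in wt and 11.8 % in βerko MEFs, a difference of -32.4 ± 22.8 points (SD over positions) with rank 179 from the lowest of 8711 genes. Its 9 body positions, all in an intron, averaged 36.1 and 6.90 %, with a difference of -29.2 ± 13.4 points and rank 257 from the lowest of 16466. Each of the 19 covered positions was lower in βerko MEFs. All 9 body positions lay between +883 and +1250, so that the difference describes the start of the gene only.

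The upstream positions of Grem1 fell into 2 groups with different levels. From -118 to -84 relative to the gene start, 7 positions averaged 22.1 % in wt and 1.61 % in βerko MEFs. From -417 to -386, 3 positions averaged 95.9 % in wt and 35.5 % in βerko MEFs. In βerko MEFs these 3 values were graded, with 14.9 % at -417, 33.1 % at -404 and 58.7 % at -386. The 52 bases chr2:113599179-113599230 around them are shown 5′ to 3′ on the minus strand with the 3 covered CpGs in capitals, each of which was lower by at least 20 points.
Grem1: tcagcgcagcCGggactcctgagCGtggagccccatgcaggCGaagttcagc

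The first capital CpG, at chromosome 2 position 113599220, was the DMP of Grem1. Methylated reads numbered 80 of 82 in wt (97.6 %, exact 95 % interval 91.5 to 99.7 %) and 18 of 121 in βerko MEFs (14.9 %, 9.06 to 22.5 %), with an adjusted p-value of 7.17e-32 by Fisher's exact test. Other secreted antagonists differed less. Nog, encoding the BMP antagonist Noggin, was near 0 upstream (1.12 and 0.536 %) and in its body (3.37 and 1.65 %), and its upstream window also holds the start of Gm2018. Chrd, encoding the BMP antagonist Chordin, had an unmethylated upstream region (0.879 and 1.46 %) and body means of 26.6 and 19.7 %. Within Chrd, 9 positions between +1027 and +1238 averaged 90.4 and 67.7 %. Fst, encoding the activin-binding protein follistatin, had upstream means of 4.77 and 0.409 % and body means of 16.2 and 12.2 %.

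**Figure D3:**
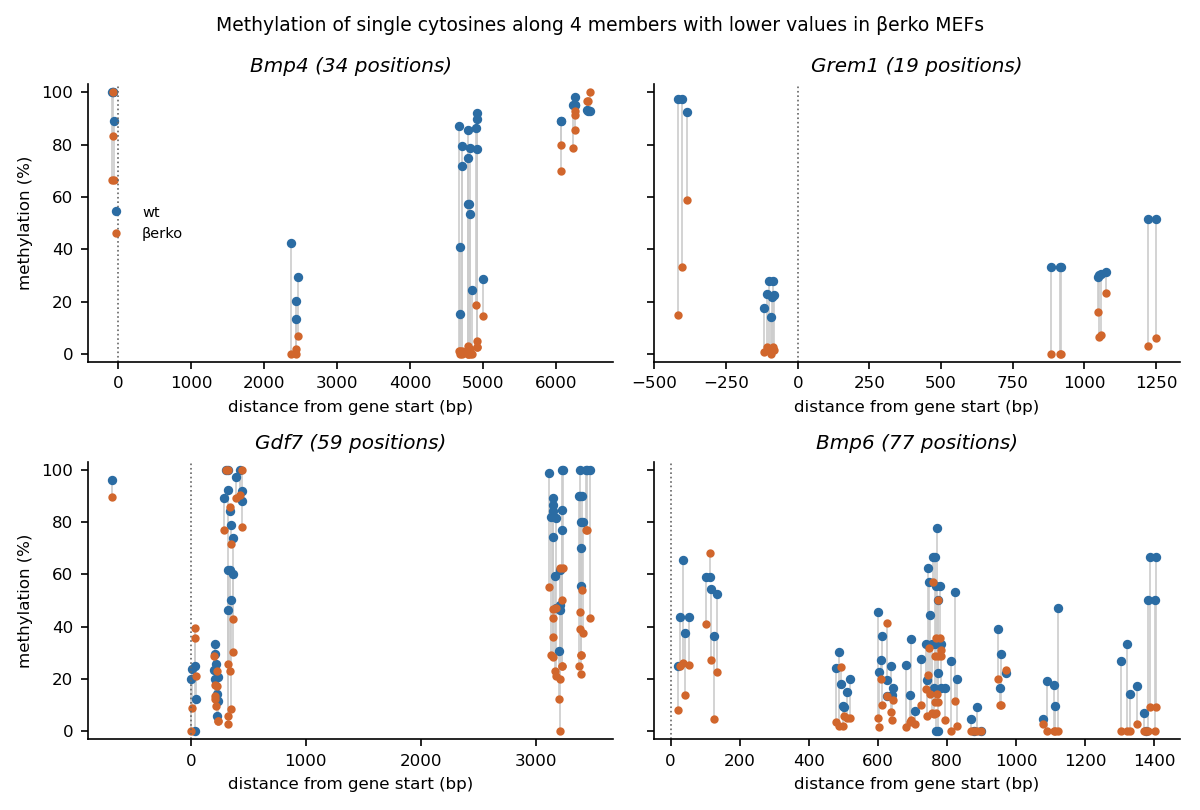
Methylation in percent of single cytosines against the distance from the gene start in bp, at Bmp4, Grem1, Gdf7 and the positions of Bmp6 up to +1405. Blue points are wt and orange points βerko MEFs, joined by a grey line, and the dotted line is the gene start. The low orange values at Bmp4 between +4671 and +5002 contrast with the shared high values beyond +6061, and all 19 positions of Grem1 are lower in βerko MEFs.

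Gdf7, a growth and differentiation factor of the BMP group, was the third gene with a lower body mean. It lies on the minus strand at chr12:8304740-8308760. The 58 body positions averaged 64.6 % in wt and 38.5 % in βerko MEFs, a difference of -26.1 ± 24.4 points (SD over positions) with rank 348 from the lowest of 16466. The 28 coding positions between +3113 and +3467 averaged 78.8 % in wt and 38.1 % in βerko MEFs, and 26 of them were lower by at least 20 points. In βerko MEFs the values of this stretch ranged from 0 to 76.9 %. Around the start of the gene, from +2 to +448, 30 positions averaged 51.3 and 38.8 %. Gdf7 held no DMP but had 34 positions lower by at least 20 points, the most of the 38 genes.

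Bmp2, a ligand known for inducing bone and cartilage, had a body mean that differed little (30.4 % in wt and 25.6 % in βerko MEFs over 123 positions) but a coding stretch that differed strongly. Between -73 and +1403, 119 positions averaged 18.1 % in wt and 19.3 % in βerko MEFs, 13 of them lower and 12 higher by at least 20 points. Between +2324 and +2416, 16 coding positions averaged 91.2 % in wt and 52.2 % in βerko MEFs, 12 of them lower by at least 20 points and none higher. Without its first 2 kb the body of Bmp2 held 18 positions with a difference of -35.0 points. The coding stretch, chr2:133380209-133380321 on the plus strand, is shown because it holds a pair of DMPs, with the 10 CpGs of 13 that were lower by at least 20 points on at least 1 strand in capitals.
Bmp2: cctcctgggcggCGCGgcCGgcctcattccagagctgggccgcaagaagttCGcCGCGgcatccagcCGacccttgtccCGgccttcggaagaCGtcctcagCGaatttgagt

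Bmp2 held DMPs in both directions. The hypomethylated pair, at chromosome 2 positions 133380222 and 133380224, is the first 2 capital CpGs and was read on the minus strand. Both had 6 of 6 methylated reads in wt (100 %, exact 95 % interval 54.1 to 100 %). In βerko MEFs 3 of 21 and 2 of 21 reads were methylated, with adjusted p-values of 0.0337 and 0.0116 by Fisher's exact test. In the 5′ UTR, at 133378854, methylated reads numbered 1 of 13 in wt and 7 of 8 in βerko MEFs, a hypermethylated DMP with an adjusted p-value of 0.0600 by Fisher's exact test, which missed the threshold of 0.05. Its 6 neighbours within 100 bp averaged 39.3 and 43.8 %.

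The other BMP and GDF ligands, named here after their values were seen, differed in both directions. Bmp6 had body means of 37.3 and 24.4 % over 90 positions. Its 77 positions between +22 and +1405 averaged 30.5 and 12.9 %, 29 of them lower by at least 20 points, while its 12 intron positions averaged 84.4 and 98.5 %. Bmp3 was lower in its body (18.5 and 12.1 % over 63 positions), and Bmp5 had only 3 positions, with 94.4 and 94.0 %.

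Gdf6 was lower upstream and Bmp7 and Gdf5 were higher, each by under 20 points. The 25 upstream positions of Gdf6 averaged 28.5 % in wt and 12.4 % in βerko MEFs, a difference of -16.1 ± 27.5 points (SD over positions). At -504, -502 and -500 Gdf6 had 77.8, 66.7 and 66.7 % in wt and 3.23, 3.23 and 3.33 % in βerko MEFs, whereas at -234 it had 1.69 and 17.0 %. Bmp7, a BMP of kidney, eye and skeletal development, was the gene with the most positions higher in βerko MEFs. Its 20 upstream positions averaged 21.3 % in wt and 33.2 % in βerko MEFs, a difference of 11.9 ± 19.0 points, and its 98 body positions averaged 48.6 and 53.0 %. At -83 Bmp7 had 6.25 % in wt and 49.1 % in βerko MEFs, and at -264 it had 0 and 53.3 %. Of its 118 positions 29 were higher and 13 lower by at least 20 points. Gdf5, a ligand of joint formation, averaged 79.2 % in wt and 91.7 % in βerko MEFs over 16 body positions, 4 of which were higher by at least 20 points and none lower.

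**Figure D4:**
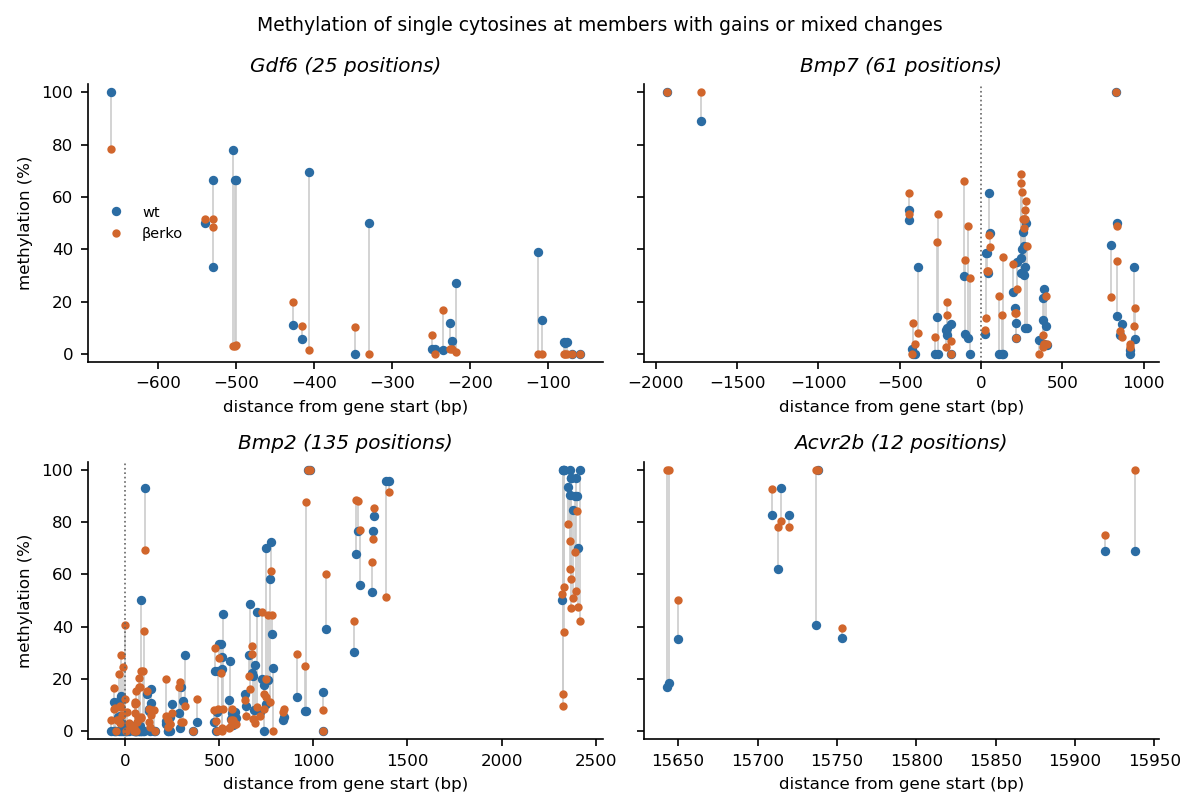
Methylation in percent of single cytosines against the distance from the gene start in bp, upstream of Gdf6, around the start of Bmp7, around the start and coding stretch of Bmp2 and in the intron stretch of Acvr2b between +15643 and +15938. Blue points are wt and orange points βerko MEFs, joined by a grey line. Gdf6 and the right end of Bmp2 hold mainly lower orange values, Bmp7 and Acvr2b mainly higher ones.

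The 3 TGF-beta ligands differed by under 10 points in each mean over at least 5 positions. Tgfb2 had the largest body difference of them, with 34.1 % in wt and 27.9 % in βerko MEFs over 58 positions. From its 5′ UTR to just upstream of the start, 7 positions of Tgfb2 averaged 57.5 and 31.2 %, so that a window from 1 kb upstream to 500 bp downstream would count Tgfb2 beside Grem1 as lower by at least 20 points. Tgfb1 had upstream means of 11.1 and 16.7 % over 9 positions and body means of 31.3 and 26.3 % over 76 positions. In an intron of Tgfb1, 7 positions within 100 bp of each other averaged 39.6 and 11.1 %. They included a hypomethylated DMP at chromosome 7 position 26474570, with 22 of 22 methylated reads in wt and 1 of 18 in βerko MEFs (adjusted p = 4.28e-08, Fisher's exact test). The cytosine of the same CpG on the other strand had 100 and 50 %. Tgfb3 was unmethylated upstream (0.338 and 0 %) and averaged 65.2 and 62.7 % in its body.

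Among the activin and inhibin subunits, Inhbb, which encodes the activin βB chain, had the largest difference of bodies with at least 5 positions, with 16.2 % in wt and 8.79 % in βerko MEFs over 152 positions. Its upstream mean was 6.84 % in both. Inhba, encoding the βA chain, averaged 15.4 and 14.0 % in its body. Inha, encoding the inhibin α chain, was near 0 upstream over 93 positions (0.608 and 0.275 %), in a window shared with the start of Obsl1, and its 3 body positions averaged 98.3 and 80.5 %.

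The DMP of Inhbb lay in a coding exon at chromosome 1 position 121317337. Methylated reads numbered 56 of 64 in wt (87.5 %, exact 95 % interval 76.8 to 94.4 %) and 5 of 56 in βerko MEFs (8.93 %, 2.96 to 19.6 %), with an adjusted p-value of 1.68e-16 by Fisher's exact test. Its 30 neighbours within 100 bp averaged 28.3 % in wt and 11.8 % in βerko MEFs. The nearest covered CpG before it in the gene direction differed between strands, with 89.4 and 21.4 % on the plus strand and 100 and 77.8 % on the minus strand.

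The receptor genes with at least 5 upstream positions were unmethylated there in both cell types, and most receptor gene bodies differed little. Their upstream means were below 1 % in both wherever at least 5 positions were covered, as in Tgfbr1 (0 and 0 %), Acvr1 (0.261 and 0.336 %, in a window shared with the start of Upp2), Tgfbr2 (0.149 and 0.104 %), Bmpr2 (0.402 and 0.191 % over 82 positions), Acvr2a (0 and 0.327 %) and Acvr2b (0.524 and 0.490 %). Body means differed by under 3 points in Tgfbr1 (7.99 and 7.93 %), Bmpr1a (2.32 and 2.48 %), Acvr1 (24.2 and 25.2 %), Tgfbr2 (27.3 and 26.0 %) and Acvr2a (23.1 and 23.1 %). In the body of Acvr2b the mean over 83 positions was 52.7 % in βerko MEFs, a difference of 2.70 points from wt that was the largest of the type II receptors. Bmpr1b, a type I receptor of BMPs and GDFs, had the largest difference of the type I receptors, with 51.0 % in wt and 42.5 % in βerko MEFs over 41 body positions. Around its start 10 positions of Bmpr1b averaged 26.7 and 4.33 %. Its 4 upstream positions, too few for an upstream mean, averaged 75.7 % in wt and 63.0 % in βerko MEFs. Bmpr1a and Tgfbr3 had no covered upstream position. Tgfbr3, the co-receptor betaglycan, averaged 57.4 and 53.5 % over 52 body positions.

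Acvr2b, a type II receptor of activins and related ligands, held the only hypermethylated DMPs of the pathway that passed the test. They are the plus and minus strand cytosines of 1 intron CpG, at chromosome 9 positions 119327205 and 119327206. Methylated reads numbered 12 of 71 and 17 of 93 in wt (16.9 and 18.3 %) and 42 of 42 and 67 of 67 in βerko MEFs (100 % on both strands, with lower bounds of the exact 95 % intervals of 91.6 and 94.6 %). Adjusted p-values were 1.25e-17 and 5.45e-26 by Fisher's exact test. Over 10 positions of this intron stretch the mean was 56.7 % in wt and 81.9 % in βerko MEFs. This stretch, chr9:119327195-119327325 with 131 bases on the plus strand, is shown around the pair of DMPs. The DMP is the first of its 2 capital CpGs, which mark those higher by at least 20 points on at least 1 strand.
Acvr2b: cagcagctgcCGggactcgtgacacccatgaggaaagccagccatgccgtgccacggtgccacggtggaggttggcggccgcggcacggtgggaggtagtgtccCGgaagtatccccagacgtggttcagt

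The second capital CpG of Acvr2b differed between strands. On the plus strand it had 40.5 % in wt and 100 % in βerko MEFs, while the minus strand had 100 % in both. Of the other 6 covered CpGs in the stretch none differed by 20 points.

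Receptor-regulated Smads differed little in their means. Smad1 had 8.60 % upstream in wt and 0.770 % in βerko MEFs over 5 positions, a difference that came from the position at -219 with 41.3 and 3.85 %, and body means of 27.3 and 25.8 %. Smad2 was near 0 upstream (0.258 and 0.0546 %) and in its body (1.50 and 0.985 %). Smad5 averaged 22.9 and 18.9 % upstream and 0.553 and 0.446 % in its body. Smad3 averaged 12.6 and 12.7 % upstream and 50.8 and 47.7 % in its body over 119 positions. Deep in an intron of Smad3, at chromosome 9 position 63515170, methylated reads numbered 11 of 12 in wt and 1 of 14 in βerko MEFs, a hypomethylated DMP with an adjusted p-value of 0.00348 by Fisher's exact test. Its 1 covered neighbour within 100 bp had 66.7 and 0 %.

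Smad6 and Smad7 inhibit signalling by the receptors. Smad6, the one of them with the larger difference, was near 0 upstream (0.303 and 0.111 %) and averaged 44.4 % in wt and 39.4 % in βerko MEFs over 195 body positions. Between +23798 and +23843, in an intron of Smad6, 7 positions averaged 91.4 and 46.1 %, and 6 of them were lower by at least 20 points. In Smad7, whose upstream window also holds the start of RP24-263P17.1, the means were 4.58 and 4.63 % upstream and 7.85 and 6.69 % in the body.

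The Id genes, which encode inhibitors of basic helix-loop-helix factors and respond to BMPs, were unmethylated at nearly all covered positions. Id1 had 0 % at all 7 upstream positions in both cell types. Id2 averaged 0.498 and 0.456 % over 8 body positions, and Id3 averaged 0.0596 and 0.0339 % over 28. Id4 had the largest difference of the 4 over at least 5 positions, with 8.51 % in wt and 2.50 % in βerko MEFs over 36 body positions and 1.71 and 0.180 % upstream. Id3 held a hypermethylated DMP at -1161, chromosome 4 position 135698251, with 0 of 5 methylated reads in wt (exact 95 % interval 0 to 52.2 %) and 10 of 12 in βerko MEFs (83.3 %, 51.6 to 97.9 %). By Fisher's exact test its p-value was 0.00339 before and 0.373 after adjustment over all positions, and the call also depended on the adjustment, since it passed when p-values were adjusted over the deposited DMP tables alone. The 2 upstream positions of Id3, too few for an upstream mean, differed by 61.7 points on average, with 60 and 100 % at -1134.

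The pathway genes held 15 DMPs in 8 genes. Of these, 11 were hypomethylated, in Tgfb1, Bmp2, Bmp4, Inhbb, Grem1 and Smad3, and 4 were hypermethylated, in Bmp2, Acvr2b and Id3. Hypomethylated DMPs made up 0.377 % of the 2916 positions, against 0.700 % of all 826937 positions, and hypermethylated DMPs 0.137 %, against 0.237 %. Counted by gene, 6 of 37 genes with at least 5 positions in all held a hypomethylated DMP, or 16.2 %, against 11.7 % of 18253 genes, and 3 of 37, or 8.11 %, held a hypermethylated DMP, against 5.05 %. The 2 ways of counting lie on different sides of the background, and the 5 DMPs of Bmp4 share 1 stretch. A gene with more covered positions can more easily hold a DMP, and the count by gene was not matched for positions per gene. All 11 hypomethylated and 2 of the 4 hypermethylated DMPs passed the test. As DMPs were chosen for the tested difference, passing depended mainly on the number of reads. Reads at the 15 DMPs numbered from 5 to 93 in wt, with a median of 39, and from 8 to 121 in βerko MEFs, with a median of 56.

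**Figure D5:**
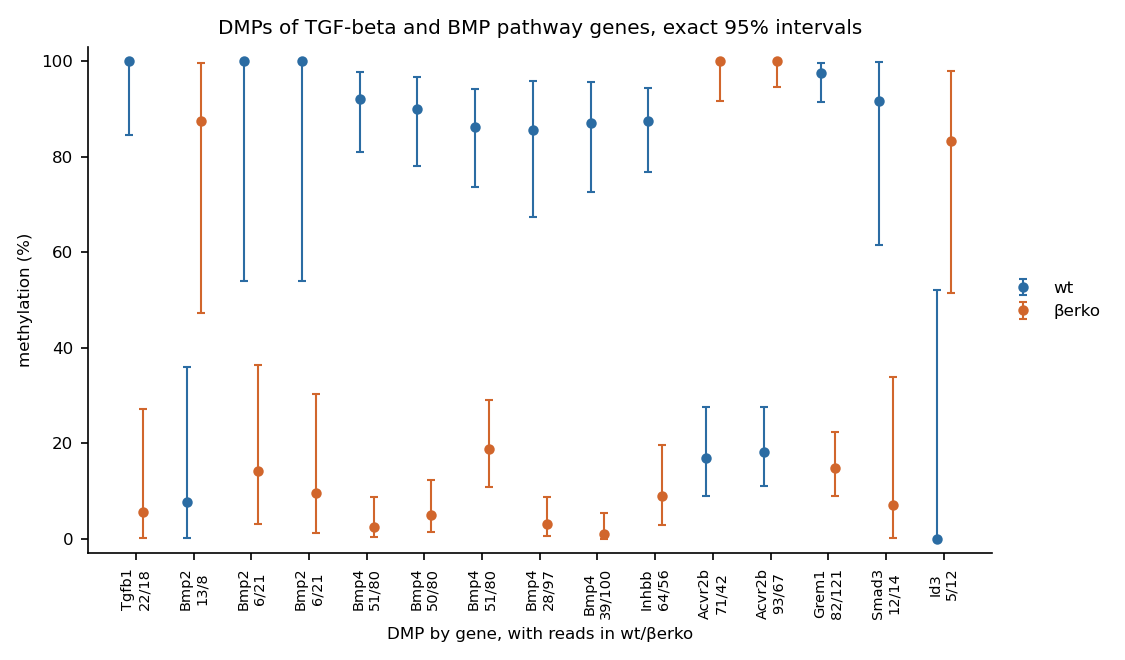
Methylation in percent of the 15 DMPs of the pathway genes, labelled with the gene and the reads in wt and βerko MEFs. Points are the share of methylated reads, blue in wt and orange in βerko MEFs, with exact 95 % intervals that cover counting error only. Intervals of the 2 cell types are far apart at Bmp4, Inhbb, Acvr2b and Grem1, and meet at Id3, which had 5 reads in wt.

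Over all their positions the pathway genes averaged 23.7 % methylation in wt and 20.2 % in βerko MEFs, a mean difference of -3.46 points, compared with 40.7 and 38.8 % and -1.89 points over all covered positions. Positions lower in βerko MEFs by at least 20 points made up 290 of 2916, or 9.95 %, against 10.4 % of all positions, and positions higher by that amount 90, or 3.09 %, against 6.81 %. The share of lower positions was thus near the background. They were unevenly spread, with 112 of the 290 in Gdf7, Bmp6, Bmp2 and Smad6, and 29 of the 90 higher positions lay in Bmp7. Such counts depend on coverage. Lower positions numbered 34 of 59 covered in Gdf7, 29 of 90 in Bmp6, 25 of 137 in Bmp2 and 24 of 225 in Smad6. In Grem1 and Bmp4 they were fewer but a larger share, 15 of 19 and 20 of 34. Bmp7 had 118 covered positions. Bmp5, Bmpr1a, Bmpr2, Id1, Id2, Nog and Tgfbr1 held neither kind.

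Of the 290 lower positions 261 lay downstream of the gene starts, where 2225 of the 2916 covered positions lay as well. From 1000 to just under 5000 bp downstream, 516 positions averaged 26.2 % in wt and 15.8 % in βerko MEFs, and 21.9 % of them were lower by at least 20 points, against 16.0 % at this distance over all annotated genes. Of these 113 lower positions, 26 lay in the Gdf7 stretch from +3113 to +3467 and 12 in the Bmp2 stretch from +2324 to +2416. The Bmp4 stretch from +4671 to +5002, with 15 lower positions, lay mostly in this class too. Whether the share would exceed 16.0 % without these stretches was not tested. In the first 1000 bp downstream, 1201 positions averaged 7.96 and 5.52 %, and 6.58 % were lower, against 7.08 %. At 5000 bp and further 508 positions averaged 82.6 and 80.4 %, with 13.6 % lower and 7.87 % higher, against 11.9 and 9.21 %. By the share of lower positions, the order of these downstream classes was thus the same over all genes. In the 1000 bp upstream, 556 positions averaged 5.64 and 4.24 %, and 5.04 % were lower, against 6.75 %. Beyond these, up to 2000 bp upstream, 135 positions in 9 genes averaged 6.87 % in wt and 7.69 % in βerko MEFs. Only 0.741 % of them were lower, against 12.6 % over all genes, and 2.22 % were higher, against 5.32 %. With this class included, the order by the share of lower positions was not the same over all genes. By annotation, coding exons had 38.4 and 29.8 % over 574 positions, 5′ UTRs 7.45 and 5.01 % over 853, and introns 46.4 and 43.3 % over 780, a split that was not made over all genes. Lower positions had a median of 15 CpGs within 100 bp and higher positions 12, while positions less than 20 points apart had 22. Over all covered positions the medians were 11, 6 and 15, in the same order. Neighbouring positions share fragments, and positions of 1 gene are not replicates.

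In stretches of at least 5 positions with gaps of at most 100 bp, 13 of 129 in the pathway genes were lower in βerko MEFs by at least 20 points on average, or 10.1 %, beside 7.74 % of 39421 stretches over all genes, and 1 of 129 was higher, or 0.775 %, beside 1.99 %. The lower stretches belonged to Tgfb1, Tgfb2, Bmp2, Bmp4, Bmp6, Gdf7, Inhbb, Bmpr1b, Chrd, Grem1 and Smad6, with 2 each in Bmp6 and Gdf7. The higher one was that of Acvr2b. Genes with lower stretches thus included 6 ligand genes in addition to Inhbb, and 1 receptor gene. These counts were not set beside the stretches measured in each role. A stretch below 20 % in wt cannot be lower by 20 points. Such stretches were found in receptor genes, as in Tgfbr1 (0.426 % in wt over 36 positions) and Bmpr1a (0.0996 % over 47). They also occurred in ligand genes, as in Tgfb1 (1.04 % over 17).

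Other genes of the pathway, 56 in number and taken from a separate list, showed like counts. Of 23 with at least 5 upstream positions none was lower or higher by 20 points, and of 49 bodies 3 were lower, or 6.12 %, and none higher. The median differences were -0.403 points upstream and -0.842 points in bodies. The 3 lower bodies were those of Amh, encoding anti-Müllerian hormone (83.8 % in wt and 46.5 % in βerko MEFs), Bmp8b (74.7 and 42.6 %) and Nodal, a ligand of early embryonic patterning (48.8 and 26.9 %). Next came the BMP9 and BMP10 receptor gene Acvrl1 (68.3 and 49.1 %) and Bmp8a (58.9 and 40.5 %). The list held 15 hypomethylated DMPs in 7 genes and 5 hypermethylated DMPs in 4 genes over 2952 positions. These are 0.508 and 0.169 % of its positions, against 0.700 and 0.237 % of all positions, and 13.7 and 7.84 % of its 51 genes with at least 5 positions, against 11.7 and 5.05 % of all such genes. The shares by gene were again not matched for positions per gene.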

How the data were processed

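RRBS of wt and βerko MEFs had been carried out by the authors with 1 library per cell type and mapped to mm9 with the Genomatix Mining Station, and the submitters' processing notes name CASAVA 1.4. The authors deposited a table of percent methylation for every cytosine with reads in both cell types, and for DMPs the read counts and percentages per library with an annotation from RegionMiner, whose versions are not given in the sources used here. All 826937 positions were CpG cytosines of NCBIM37. The sequences printed were read from NCBIM37, and promoter sequences of another build were not used.

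Positions were assigned to GENCODE vM1 gene models on NCBIM37, as the gene body or the 2 kb upstream of its start. Means needed at least 5 positions, and a difference of at least 20 percentage points counted as a call. With 1 library per cell type no test of means was made. DMPs had more than 4 reads in both libraries and were below 20 % in one library but above 80 % in the second. Their counts were compared by two-sided Fisher's exact test with Benjamini-Hochberg adjustment over 826937 positions, those without reads at p = 1, and a threshold of 0.05. Intervals are exact binomial intervals at 95 %. The procedure was tested on simulated data.

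The genes and lists were chosen with earlier results of these data known. All 38 genes were accounted for. Named with values by rule were genes with a called mean, genes with a DMP and the gene with the largest difference of each role, and of the other pathway genes the 5 with the largest differences. Further genes and stretches were named after their values were seen. Sequences are those around the longest run of DMPs of the 5 genes with the longest runs, ties being broken by reads in the less covered library, and 1 of these 5 is not reported here. Alternatives were tried for the window, the number of positions, the averaging, the size of a call and the criteria of DMPs. Stretches, a background of protein-coding genes, distances over all genes and the region from 2 to 10 kb upstream were added after seeing the data. Expression, histone and ChIP data were not analysed here. Python 3.11.15 was used with SciPy 1.17.1, pandas 2.3.3, NumPy 2.4.6 and matplotlib 3.10.9.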

Additional observations from a re-analysis of the deposited data

How the results depend on the processing

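The called differences depended mainly on the window and on the size of a call. With a window from 1 kb upstream to 500 bp downstream 2 genes were lower upstream, Grem1 and Tgfb2. At 10 points 2 genes were lower upstream, Gdf6 and Grem1, and 1 was higher, Bmp7, beside 12.0 and 2.39 % of all measured genes. In bodies Bmp6 was then also lower (-12.9 points) and 1 was higher, Gdf5, beside 10.1 and 3.81 % of all bodies. At 30 points 1 body was lower, that of Bmp4, beside 1.45 % of all bodies. With at least 10 reads 2 hypermethylated DMPs were left, and with limits of 10 and 90 % 4 hypomethylated and 0 hypermethylated DMPs. When p-values were adjusted over the deposited DMP tables alone, 4 hypermethylated DMPs passed Fisher's exact test. These changes follow from the settings themselves. Without the first 2 kb the lower bodies were Bmp2, Bmp4 and Gdf7, since Grem1 kept fewer than 5 positions. Of the alternatives run none turned the direction of a called mean. Among protein-coding genes alone, a background chosen after seeing the data, 4.94 % were lower upstream and 3.13 % in bodies. No replicate could be left out, as each cell type had 1 library. No paired analysis was possible because there was 1 library per cell type. Depth limits the DMPs of Bmp2 and Id3 most.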

Other observations

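Between 2 and 10 kb upstream of the gene starts, a region examined after the other values were known, 6 of the 38 genes had at least 5 covered positions and none differed by 20 percentage points or more on average. Id2 was unmethylated over 48 positions (0.497 % in wt and 0.304 % in βerko MEFs), and Id3 averaged 4.54 and 1.93 % over 20 positions. Inha, near 0 in its upstream window, averaged 97.1 % in wt and 80.5 % in βerko MEFs over 8 positions further upstream. Bmp7 averaged 52.5 and 62.4 % over 5 positions, Tgfb3 6.27 and 8.66 % over 24, and Inhbb 85.3 and 87.4 % over 6.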
